A study of Homo sapiens with 4 samples.

Results

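The mitochondrial ribosomal protein genes were taken as all gene names of the array design that read MRPL or MRPS followed by a number and, in places, a letter A to C. This gave 77 genes of 43317 names, measured by 95 probes on 131 spots, and of each gene the probe with the highest mean log2 signal over 4 arrays was used. The rule selects names by spelling and uses no measured value. By textbook assignment 50 of the 77 encode proteins of the large subunit (MRPS18A and MRPS30 among them, despite their names) and 26 encode proteins of the small subunit. The last is MRPS36, which has since been renamed KGD4 as a part of the α-ketoglutarate dehydrogenase complex. It was kept because the name fits, and it is given apart from both subunits.

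The mitochondrial ribosome translates the few messenger RNAs of mitochondrial DNA, which encode subunits of the respiratory chain and of ATP synthase. Its ribosomal RNAs come from mitochondrial DNA, but all of its proteins are encoded in the nucleus, made in the cytosol and imported. Many descend from proteins of the bacterial ribosome, and others were added in mitochondria and have no bacterial counterpart. Tumour cells that rely on respiration depend on this ribosome, and its genes are known targets of nuclear respiratory factors and of MYC.

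The study used HCT116, an established colorectal cancer cell line, and A549, an established lung cancer cell line. Each was transfected, with the reagent Dharmafect1, either with the microRNA miR-891b or with the negative control RNA called NC1. Total RNA was measured on Agilent 1-colour arrays, with 4 groups of 1 array each, miR-891b and NC1 in HCT116 and miR-891b and NC1 in A549. Values on the 4 arrays are given in a fixed array order: HCT116 with NC1, HCT116 with miR-891b, A549 with NC1, A549 with miR-891b. The title of the series names PSAT1, a serine synthesis enzyme, and vesicle release by cancer cells, and the comparison of interest is miR-891b against NC1 within each line. A difference between 2 arrays has no replicate check here, no p-value is given for it, and a change is called by its size, at 2-fold or more. HCT116 arrays shared a slide and a scan day, as did A549 arrays, so cell line and slide cannot be told apart. Fewer cells and less RNA of a kind per cell cannot be told apart either, since these are bulk samples.

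Levels below are log2 signals minus the 75th percentile of the same array, so a level above 0 lies above that percentile. A spot was well above background where the scanner software marked it so, and 44.7% to 50.3% of gene probes were on the 4 arrays. PSAT1 had levels of 6.22, 5.41, 5.76 and 4.17. Markers of the lines bore out the labels: on the NC1 arrays A549 minus HCT116 ran from -6.75 to -3.13 (log2) for CDX2, CLDN7, EPCAM and CLDN3 and from 2.36 to 12.2 for AKR1B10, AKR1C1, ALDH3A1 and NQO1. ALDH1A1 had a level of 9.48 on A549 NC1 and did not rise well above background in HCT116. Areas of stray signal were sought among nearby dim spots, meaning gene spots not well above background on any other array. A spot lay in such an area where at least 10% of these dim spots were well above background on its own array. At least 10 dim spots were needed. Such areas held 2.20%, 10.5%, 0.021% and 1.83% of gene spots in array order.

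A microRNA recognises its targets mainly through its seed, bases 2 to 8. The mature sequence is shown because it is the agent transfected, with the seed in capitals. It is taken from RefSeq (GRCh38.p14, chrX:146001100-146001121, minus strand) and the labels do not give the sequence used in the experiment.
hsa-miR-891b: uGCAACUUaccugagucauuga
The DNA letters that pair with this seed, AAGTTGC, were in 0 of the 95 probe sequences of the mitochondrial ribosomal genes and in 95 of 23216 probes well above background on all 4 arrays, or 0.409%. A probe covers 60 bases of its transcript, so sites elsewhere in these transcripts were not analysed here.

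All 77 genes were well above background on all 4 arrays. Their processed signals ran from 117 to 8796 on HCT116 NC1, from 142 to 9342 on HCT116 miR-891b, from 96.2 to 17272 with NC1 in A549 and from 52.8 to 12851 with miR-891b in A549. The median signals in the same order were 1796, 2071, 2351 and 1549. Every member lay above the 75th percentile of the array on the first 3 of these, and 76 of 77 did on A549 miR-891b. The exception was MRPL1, a protein of the L1 stalk by which transfer RNA leaves the ribosome, with levels of 1.098, 1.43, 0.36 and -0.49. The probe of one gene was not set against that of another, because brightness also depends on the probe.

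**Figure D1:**
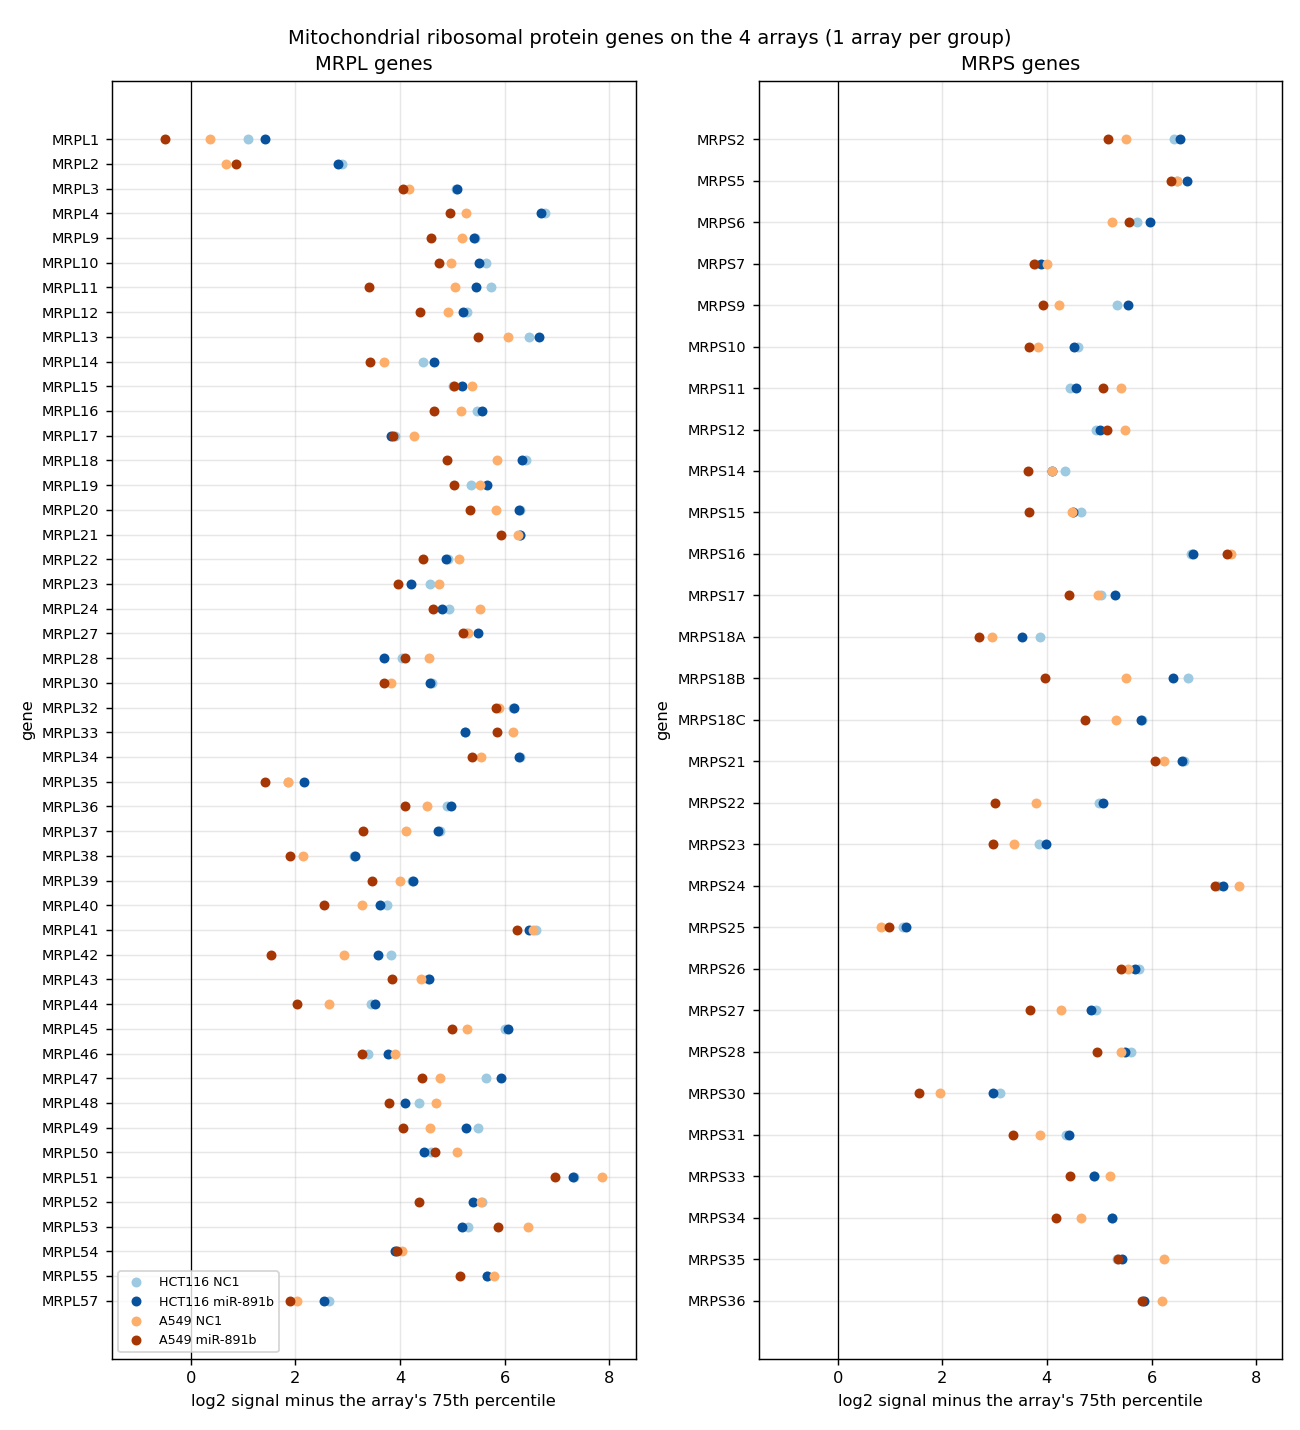
Level of each of the 77 genes on the 4 arrays (log2 signal minus the 75th percentile of the array), with MRPL genes on the left and MRPS genes on the right and 1 point per array. The A549 miR-891b point lies to the left of the A549 NC1 point for 74 of 77 genes, whereas the HCT116 points lie close together.

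In A549 nearly all mitochondrial ribosomal genes had a lower level with miR-891b than with NC1, most of them by a small amount. The change, miR-891b minus NC1, was below 0 for 74 of 77 genes, with a median of -0.45, quartiles of -0.61 and -0.25 and an SD over genes of 0.35. Among all 21336 genes measured in A549 the median was -0.059 and 55.6% were below 0. The members are bright, so genes with a mean level above 0 were also looked at, a reference added after seeing the data: their median was -0.088 and 58.2% were below 0. That reference holds all 11741 such genes measured in A549 and was not matched to the brightness of the members. Whether the change varies with brightness was not tested. Most members moved by less than 2-fold. Only 4 of 77 were at least 2-fold lower, or 5.19%, where 5.57% of all measured genes were, and 0 were at least 2-fold higher, where 4.01% of all measured genes were. At 1.5-fold the count was 23 of 77 lower, or 29.9%, against 15.3% of all measured genes and 17.1% of those with a mean level above 0. The count of 4 is therefore close to the background, whereas the median was lower and the share below 0 larger than in both references. That share depended on the scaling: 64 of 77 were below 0 with quantile normalization and 59 of 77 with normexp background correction and quantile normalization, with medians of -0.27 and -0.24, while under the other scalings 72 or more were.

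**Figure D2:**
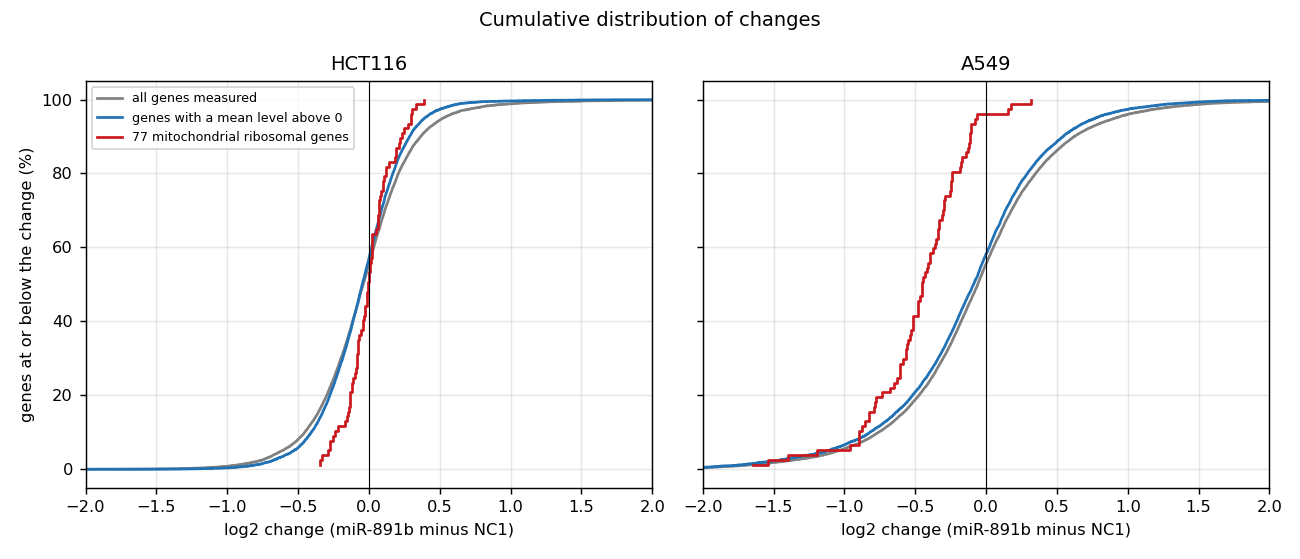
Cumulative share of genes (%) at or below a given log2 change (miR-891b minus NC1, axis limited to 2 either way) in HCT116 and A549, for all genes measured, for genes with a mean level above 0 and for the 77 members. In A549 the curve of the members lies to the left of both references over most of its range (median -0.45 against -0.059 and -0.088), and in HCT116 it crosses them near 0.

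Among large subunit genes, MRPL11 had the lowest value in A549. It encodes the protein at the base of the stalk to which translation factors bind (probe at chr11:66204614-66204673, hg19). Its levels were 5.75 and 5.46 in HCT116, and 5.06 and 3.42 in A549, NC1 first. The A549 miR-891b array thus stood well below the other 3, with a change of -1.64, or 3.12-fold, in A549 and -0.29 in HCT116. The HCT116 miR-891b spot of MRPL11 lay in an area of stray signal, where 10.3% of the nearby dim spots were bright; the A549 spots did not. MRPL42, a mitochondria-specific protein (chr12:93895832-93895891), had levels of 3.83, 3.58, 2.94 and 1.53 in the same array order, a change of -1.40 in A549 and -0.25 in HCT116. MRPL52, also mitochondria-specific (chr14:23303471-23303530), read 5.57, 5.40, 5.56 and 4.36. Its first 3 arrays were within 0.17 of each other on the log2 scale and the A549 miR-891b array was lower, by a change of -1.19. A second MRPL52 probe, at levels of 2.12, 2.41, 1.49 and 0.77, changed by -0.72 in A549 and by 0.28 in HCT116, and the mean over both probes put MRPL52 at -0.96, short of 2-fold.

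The small subunit gene with the lowest value was MRPS18B, 1 of several human relatives of bacterial ribosomal protein S18 (chr6:30594091-30594150). Levels of 6.69 and 6.42 in HCT116 stood against 5.51 and 3.97 in A549, a change of -0.28 in HCT116 and -1.54, or 2.90-fold, in A549. Its second probe changed by -0.34 and -1.51, although the spot of that probe lay in a stray area on A549 miR-891b. MRPS18A, the relative that sits in the large subunit, had levels of 3.87, 3.53, 2.95 and 2.71, a change of -0.33 in HCT116 and -0.24 in A549. MRPS18C changed by -0.013 and -0.61.

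These 4 were lower under every scaling tried. In A549 MRPL11 ranged from -1.64 to -1.39, MRPS18B from -1.54 to -1.27, MRPL42 from -1.40 to -1.15 and MRPL52 from -1.19 to -0.95. The next below them, just short of 2-fold, were MRPL18 at -0.96, MRPL24 at -0.90, MRPL48 at -0.90 and MRPL51 at -0.89; these 4 names were taken after their values were seen.

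Only 3 genes were higher with miR-891b in A549, all by little. MRPS6, a small subunit protein with a bacterial counterpart (chr21:35515227-35515286), had levels of 5.72, 5.96, 5.24 and 5.56, a change of 0.24 in HCT116 and 0.32 in A549. It was higher in both lines and kept that direction under each scaling, at up to 0.56 in A549. MRPL2, which lies close to the peptidyl transferase centre (chr6:43022026-43022085), read 2.89, 2.82, 0.68 and 0.86, changing by -0.075 and 0.18. MRPS25, a mitochondria-specific protein of the small subunit, read 1.25, 1.32, 0.83 and 0.98, changing by 0.065 and 0.15. The fourth highest value was that of MRPL32, at levels of 6.17, 6.18, 5.90 and 5.83. Its A549 change of -0.07 turned positive under some scalings, up to 0.24 with normexp and quantile normalization.

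For a few genes the array holds 10 spots of the same probe, which shows the spread of a difference within a pair of arrays. MRPS6 changed by 0.32 ± 0.051 (SD, 10 spots) in A549 and by 0.24 ± 0.033 in HCT116. MRPS15, a small subunit protein with a bacterial counterpart, changed by -0.82 ± 0.059 in A549 and -0.15 ± 0.079 in HCT116. MRPL22, which lines the exit tunnel of the nascent chain, changed by -0.68 ± 0.066 and -0.044 ± 0.11. MRPS23, a mitochondria-specific protein, changed by -0.40 ± 0.076 in A549 and by 0.14 ± 0.069 in HCT116. The A549 changes of these 4 were several times their spot SD, and over all probes with 5 or more spots the median SD was 0.071 in A549 and 0.061 in HCT116. This covers spots only, not cultures, transfections or labelling. At least 1 of the spots of MRPS15 lay in a stray area on both HCT116 arrays. The same held for MRPL22 on both miR-891b arrays and for MRPS23 on HCT116 miR-891b, but not for MRPS6 on any array. The part of stray signal in these SDs was not tested.

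In HCT116 the same genes lay around 0. The median over the 77 genes was -0.0040, against -0.041 for all 19105 genes measured there. Below 0 were 40 of 77, or 51.9%, against 55.5% of all measured genes. The SD over the members was 0.16 against 0.38 over all genes. None of the 77 was at least 2-fold lower or higher, where 0.843% and 1.16% of all measured genes were. Among the 11712 genes measured there with a mean level above 0, the median was -0.047 and the SD 0.31. Of these, 45 were at least 2-fold lower (0.384%) and 46 higher. The sign of the median is not settled, since over the alternatives it ran from -0.016 to 0.052 and the number below 0 fell to 28 with normexp and quantile normalization or with the percentile taken over detected probes.

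The HCT116 extremes were small. MRPL23, at the exit tunnel (chr11:1974021-1974080), had levels of 4.57, 4.22, 4.75 and 3.96, a change of -0.35 in HCT116 and -0.79 in A549. MRPL28, with a bacterial counterpart, read 4.05, 3.70, 4.55 and 4.09, lower with miR-891b by similar amounts in HCT116 (-0.34) and A549 (-0.46). At the other end MRPL46, a mitochondria-specific protein (chr15:89010382-89010441), had levels of 3.39, 3.77, 3.90 and 3.26, a change of 0.39 in HCT116 and -0.63 in A549. A second MRPL46 probe gave 0.43 and -0.72. MRPL1 changed by 0.33 and -0.85. MRPL19, a bacterial-type protein with levels of 5.36, 5.67, 5.52 and 5.04, changed by 0.30 and -0.48, and MRPL47, which lies near the tunnel exit, by 0.30 and -0.35 from levels of 5.64, 5.93, 4.76 and 4.41. For these 4 the HCT116 miR-891b array was above its control and the A549 miR-891b array below its own.

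**Figure D3:**
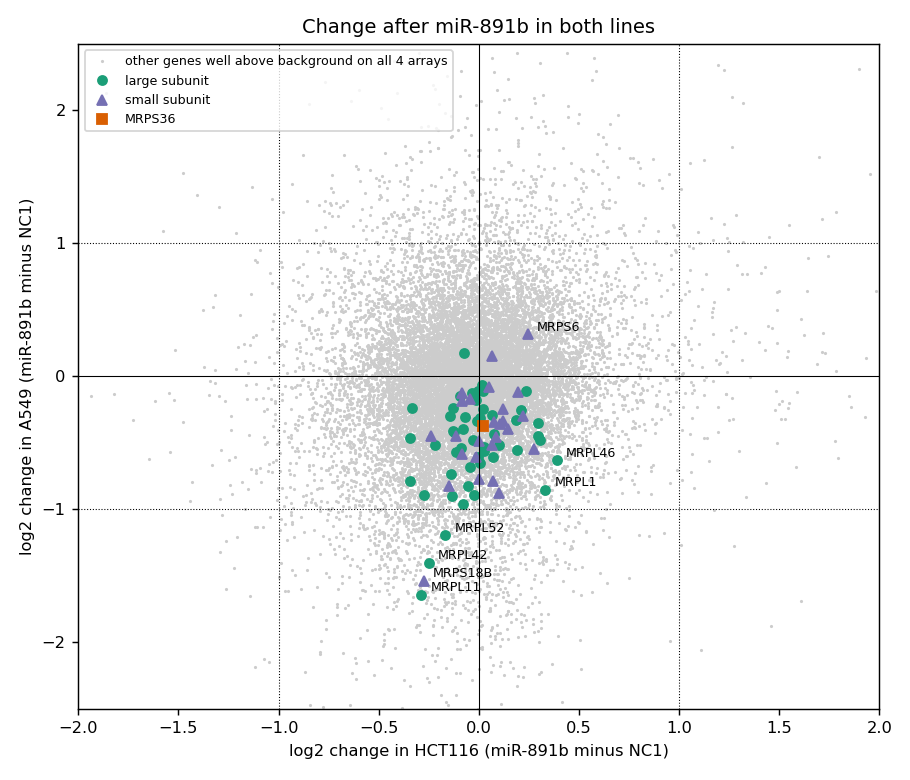
Log2 change in A549 against log2 change in HCT116 (miR-891b minus NC1) for large subunit genes, small subunit genes and MRPS36, over all other genes well above background on all 4 arrays (grey; axes limited to -2 to 2 and to -2.5 to 2.5). Dotted lines mark 2-fold; the members lie in a narrow column around 0 in HCT116 and mostly below 0 in A549, with 4 past 2-fold.

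Set side by side, 39 genes were lower in both lines, 35 were lower in A549 and higher in HCT116, 2 were higher in both and 1 was higher in A549 only. The value in A549 was below that in HCT116 for 73 of 77 genes. A test of this difference between lines needs more than 1 array per group and was not run. The same counts over all genes are not given here, so these counts have no background beside them. The median change of all measured genes was -0.059 in A549 and -0.041 in HCT116. Across the 77 genes, which share the same 4 arrays, Pearson's r between the changes in the 2 lines was 0.342 and Spearman's rho was 0.254, given as a description.

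Genes of both subunits were lower in A549. The median was -0.47 over the 50 large subunit genes, of which 49 were below 0, and -0.42 over the 26 small subunit genes, of which 24 were. In HCT116 these medians were -0.027 and 0.064. Proteins with a bacterial counterpart (47 genes) had a median of -0.36 in A549, and mitochondria-specific ones without such a counterpart (29 genes) had -0.53. In HCT116 these medians were 0.0046 and -0.026. MRPS28, for which a bacterial relative has been proposed, was counted with the latter. MRPS36 changed by 0.023 in HCT116 and -0.37 in A549, inside the range of both subunits although it is not a ribosomal protein. None of these classes was tested against another.

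Of the 17 genes with more than 1 probe, several had probes that differed. MRPS16, a bacterial-type small subunit protein, changed in A549 by -0.081 on its brighter probe and by -0.92 on the other, and in HCT116 by 0.050 and -0.31. For MRPL19, measured by 3 probes, the chosen one changed by -0.48 in A549, a dimmer one by -0.88, and one designed to another transcript by 0.037. The second MRPL43 probe was not well above background on A549 NC1, and those of MRPS18C and MRPS27 were not on any array. Probes were in closer accord for MRPL37 (-0.83 and -0.77 in A549), MRPL12 (-0.54 and -0.51) and MRPL53 (-0.57 and -0.56). With the mean over probes 73 of 76 measured genes were below 0 in A549.

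In total 13 genes had a spot in a stray area on at least 1 array, 11 of them on HCT116 miR-891b. Without all probes in such areas 62 of 65 members were below 0 in A549 and 32 of 65 in HCT116, so the A549 pattern was as wide without them.

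The other genes of mitochondrial translation were taken from lists that do not overlap the members. Beside the list counts here and below, 55.6% of all measured genes were below 0 in A549 and 5.57% were at least 2-fold lower. Of 6 mitoribosomal proteins that carry other names, 5 were lower in A549, with a list median of -0.42 (0.037 in HCT116). The exception was DAP3, a GTP-binding protein of the small subunit, at levels of 7.22, 7.61, 6.50 and 7.11 and changes of 0.39 in HCT116 and 0.61 in A549. The 14 mitochondrial translation factors had a median of -0.30 in A549 and 0.084 in HCT116, with 12 of 14 below 0 in A549. MRRF, which recycles the ribosome after termination, was the only one past 2-fold, with levels of 4.60, 4.40, 3.70 and 2.69 and an A549 change of -1.01. MTRF1, a release factor, changed by -0.77 in A549 and -0.11 in HCT116. Of 24 genes of ribosome assembly and ribosomal RNA modification, 17 were below 0 in A549, the median was -0.16 and none was past 2-fold. YBEY, an endoribonuclease, changed by -0.85 there and -0.21 in HCT116.

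Of 10 genes of mitochondrial transcription and RNA stability, 8 were lower in A549, with a median of -0.21 (0.14 in HCT116). TFAM, which packages mitochondrial DNA and starts its transcription, was the only one past 2-fold. Its levels were 4.71, 4.74, 5.18 and 3.70, a change of 0.028 in HCT116 and -1.49 in A549. SLIRP, which stabilises mitochondrial messenger RNA, changed by 0.045 and -0.85. The 11 transcripts encoded by mitochondrial DNA showed the opposite balance between the lines, with a median of -0.31 in HCT116 and -0.15 in A549. ND1 changed by -0.015 in HCT116 and -0.74 in A549, and none of the 11 was past 2-fold. Among 9 nuclear regulators of mitochondrial genes the A549 median was -0.090. GABPB1, a subunit of the factor GABP that binds ETS sites, had levels of -0.095, 0.36, 1.56 and 0.26, a change of -1.30 in A549 and 0.46 in HCT116. PPARGC1B, a coactivator of mitochondrial biogenesis, read 1.20, 1.20, -0.46 and 0.68, a change of 1.13 in A549. GABPA, which carries the DNA-binding domain of GABP, changed by 0.44 in A549 and 0.034 in HCT116. PPARGC1A was not well above background in HCT116.

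**Figure D4:**
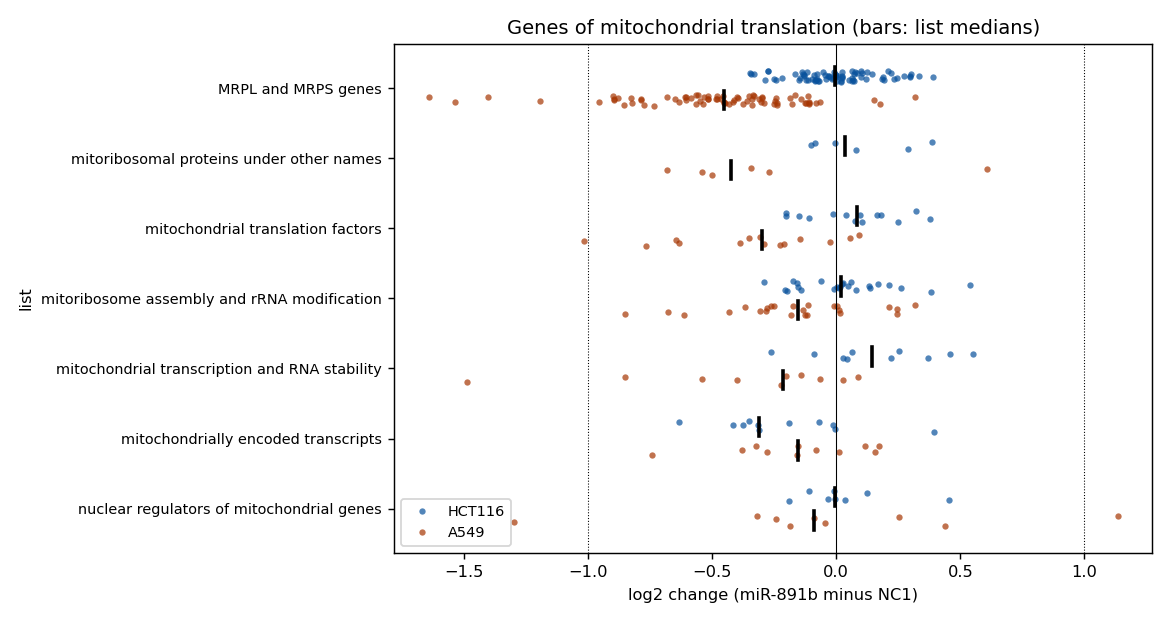
Log2 change (miR-891b minus NC1) of each measured gene in the members and in 6 lists of mitochondrial translation and its regulation, with HCT116 in blue, A549 in red and the list median as a black bar. The A549 medians lie below those of HCT116 in 6 of the 7 sets, the exception being the mitochondrially encoded transcripts, and dotted lines mark 2-fold.

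Lower values in A549 were not confined to mitochondrial translation. The 84 cytosolic ribosomal protein genes had a median of -0.76 in A549, with 82 of 84 below 0 and 16 at least 2-fold lower (19.0%). In HCT116 they had a median of -0.23, with 78 of 83 below 0. Of all measured genes 55.6% were below 0 and 5.57% at least 2-fold lower in A549, and 55.5% were below 0 in HCT116. Subunits of the respiratory chain and ATP synthase had a median of -0.31 over 79 genes in A549, with 74 below 0 and 1 at least 2-fold lower, and -0.076 in HCT116. The members lie between these sets in A549 and nearer to 0 than either in HCT116. Both sets were chosen with results of these data known, and the differences between sets were not tested.

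Promoter sequences were looked at because most members were lower together in A549. RefSeq windows from 250 bases before to 50 after the start (GRCh38.p14) were found for 69 of the 77 genes, and 5 short cores were searched on both strands. The ETS core CCGGAAG was in 28 of 69 windows (40.6%), against 10.7% of all 27305 promoters. The YY1 core ATGGCGGC, whose first letters can also be a start codon, was in 18 (26.1% against 3.21%). The NRF1 core GCATGCGC was in 6 (8.70% against 3.27%). The E-box CACGTG, which reads alike on both strands, was in 7 (10.1% against 7.43%), and the ERR core AAGGTCA in 3 (4.35% against 3.97%). In all 49 windows held at least 1 core and 11 held at least 2 kinds. These combined counts are not given over all promoters here, so they have no background beside them. The median A549 change was -0.43 with and -0.45 without the ETS core, and -0.45 and -0.46 for YY1. For NRF1 it was -0.64 and -0.45, resting on 6 genes with the core. For the E-box it was -0.52 and -0.45 (7 genes with it), and for the ERR core -0.18 and -0.46 (3 genes with it). These differences were not tested. MRPL11 and MRPL42 held none of the 5. A match is a description of letters, and binding was not measured here.

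Stretches are shown for 4 genes described above, MRPS18B and MRPL52 because they were at least 2-fold lower in A549, MRPS22 because it is taken up below, and MRPS18A as the relative of MRPS18B with a small change. They run 5′ to 3′ on the strand of the gene, with the cores in capitals (NRF1 and YY1 in MRPS18B, NRF1 and ETS in MRPL52, ETS in MRPS22, ETS and YY1 in MRPS18A). They lie at chr6:30617802-30617888 (plus), chr14:22829697-22829903 (plus), chr3:139343892-139344020 (plus) and chr6:43687757-43687837 (minus) of GRCh38.p14.
MRPS18B: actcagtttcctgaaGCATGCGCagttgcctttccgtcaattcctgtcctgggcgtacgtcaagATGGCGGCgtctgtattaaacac
MRPL52: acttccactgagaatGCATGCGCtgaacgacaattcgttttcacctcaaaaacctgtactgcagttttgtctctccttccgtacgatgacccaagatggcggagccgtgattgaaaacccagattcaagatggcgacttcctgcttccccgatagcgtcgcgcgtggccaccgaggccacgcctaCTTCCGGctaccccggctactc
MRPS22: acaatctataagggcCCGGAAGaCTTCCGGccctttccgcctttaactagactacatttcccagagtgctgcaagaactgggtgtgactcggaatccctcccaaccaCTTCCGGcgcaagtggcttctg
MRPS18A: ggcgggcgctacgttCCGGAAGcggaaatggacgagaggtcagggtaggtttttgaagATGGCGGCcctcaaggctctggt
MRPS22 held its ETS core at 3 places, and the other genes shown held each of theirs once within the stretch.

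The control arrays show how the lines differed without miR-891b. On NC1, A549 minus HCT116 had a median of -0.32 over the members and -0.10 over all 19218 genes measured there. Below 0 were 51 of 77 members, or 66.2%, against 55.0% of all measured genes. At least 2-fold lower in A549 were 6 members, or 7.79% against a background of 16.2%, and 1 was at least 2-fold higher, against 11.1%. At 1.5-fold 25 members were lower, or 32.5% against 28.5%, and 6 were higher, against 20.1%. The split depended on the scaling, with 3 lower and 4 higher under normexp with quantile normalization, and 4 higher also under quantile normalization and under the percentile over detected probes.

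MRPL2 differed most, by -2.21 on NC1, and its level on both HCT116 arrays was above that on both A549 arrays. MRPL4, a bacterial-type protein of the large subunit (chr19:10370657-10370716), had levels of 6.76, 6.70, 5.26 and 4.95, a difference of -1.51. MRPS22, a mitochondria-specific protein of the small subunit (chr3:139075773-139075832), read 5.00, 5.07, 3.80 and 3.01, a difference of -1.20 on NC1 and -2.06 on the miR-891b arrays. MRPS18B differed by -1.19 and -2.45. In the other direction MRPL53, a mitochondria-specific protein (chr2:74699207-74699266), read 5.30, 5.18, 6.45 and 5.88, a difference of 1.15, and 0.99 on its second probe. MRPS11, a bacterial-type protein with levels of 4.45, 4.55, 5.42 and 5.06, differed by 0.97. MRPL33 read 5.23, 5.24, 6.17 and 5.86, a difference of 0.93. MRPS35 read 5.33, 5.43, 6.24 and 5.36, so that its difference of 0.91 on NC1 became -0.07 on the miR-891b arrays.

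On the miR-891b arrays the difference between lines had a median of -0.79 over the members and -0.19 over all genes, with 68 of 77 members below 0 (58.5% of all genes). At least 2-fold lower were 27 members, or 35.1% against 20.7% of all genes, and 0 were at least 2-fold higher, against 11.4%. A549 was lower on both pairs of arrays for 51 members and higher on both for 9, while 17 were higher on NC1 and lower on miR-891b. The same joint counts over all genes are not given here, so these have no background beside them.

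**Figure D5:**
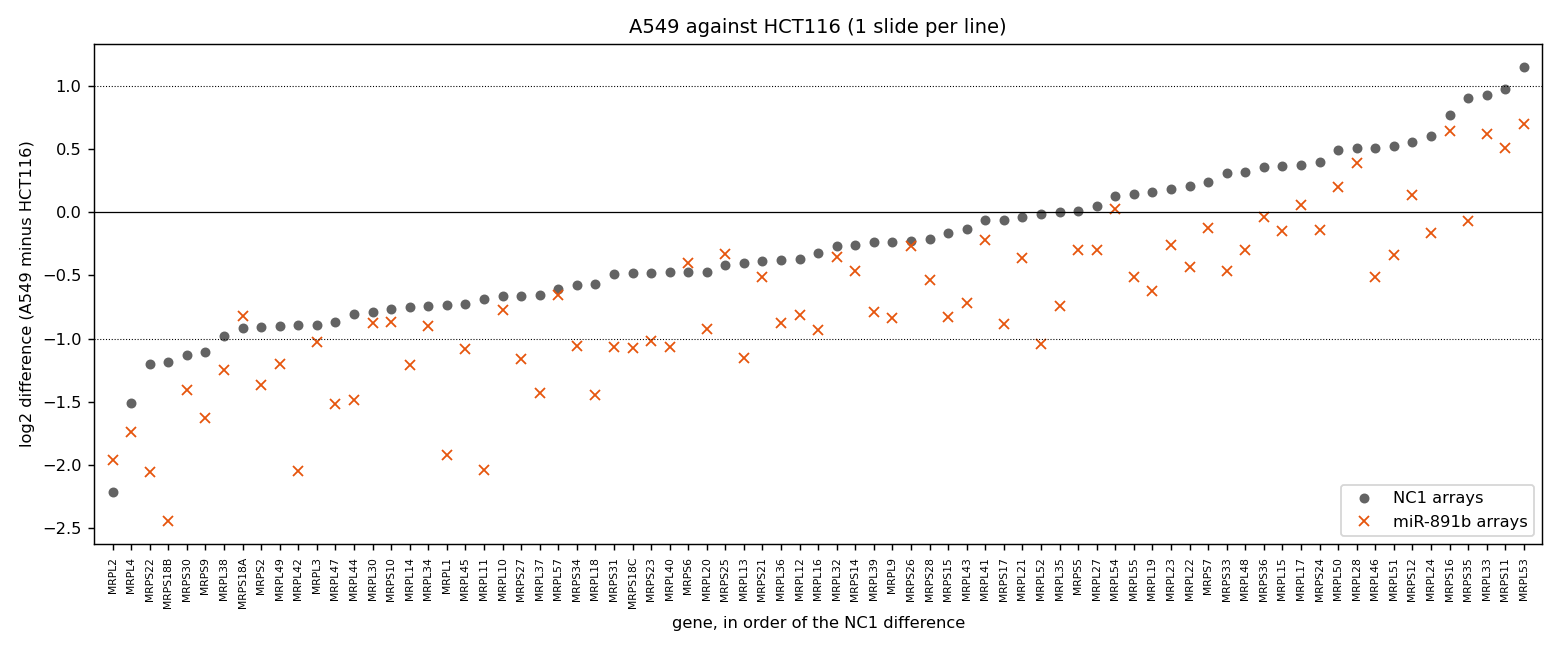
A549 minus HCT116 (log2) for each of the 77 genes on the NC1 arrays (circles) and the miR-891b arrays (crosses), in the order of the NC1 difference; dotted lines mark 2-fold. The crosses lie below the circles for most genes (73 of 77), and MRPL2 and MRPL53 are the ends of the NC1 order.

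The lines were last taken as replicates of each other in a model with a term for miR-891b and one for the line (limma, 1 residual degree of freedom, 22712 genes). The error for both terms is the disagreement between the changes in HCT116 and A549, moderated over genes, and not a spread of replicate cultures. The miR-891b term is a mean over both lines, so it does not test the lower values in A549 alone. For miR-891b 0 of 77 members had a Benjamini-Hochberg adjusted p under 0.05, as did 0 of all genes. At an unadjusted p under 0.05 there were also 0 members, against 5.35% of all genes, and at most 3 members under the alternatives tried. The lowest member was MRPL11, with an unadjusted p of 0.072 and an adjusted p of 0.793 from limma. Its fitted change was -0.96 with a 95% interval of ± 1.101, which reaches past 0. For the line, 13 of 77 members passed lower in A549, or 16.9% against 16.4% of all genes, and 0 passed higher, against 15.5%. At an unadjusted p under 0.05 there were 35 members for the line, or 45.5% against 46.2% of all genes. The share of lower calls is thus close to the background, and the absence of higher ones depended on the setting, with 16 lower and 6 higher under normexp with quantile normalization (11.8% and 10.4% of all genes) and 7 lower and 4 higher under quantile normalization (14.5% and 15.95%). MRPL2 had the lowest adjusted p in limma, 0.0072, with a fitted difference of -2.09 ± 0.65 (95% interval), followed by MRPL4 at -1.62 ± 0.65 (adjusted p 0.013). MRPS22 was at -1.63 ± 0.85 (adjusted p 0.026) and MRPS18B at -1.82 ± 1.05 (adjusted p 0.032). These differences are between lines and slides at once. Each also averages the NC1 and the miR-891b pair of arrays, so it is not the difference on control arrays. MRPS18B differed by -1.19 on NC1 and -2.45 on miR-891b arrays, and MRPS22 by -1.20 and -2.06.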

How the data were processed

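Per the labels, total RNA (100 ng) was labelled with Cy3 and hybridised to 1-colour arrays, and the titles put 1 array into each of the 4 groups. Per the submitters' processing notes and file headers, scans were quantified with Agilent Feature Extraction 11.5.1.1, which subtracted background and spatial trends; hg19 is the build of the probe coordinates. In the deposited scanner files the values are intensity on a linear scale, unscaled between arrays, with marks per spot. For the deposited value table, in log2, no source says how it was made; its values equalled the main setting here to within a median of 0.0069 per array, with column medians of -3.80, -3.60, -3.71 and -3.68.

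From the intensity values, spots marked as outliers were dropped, log2 processed signals were averaged per probe, and the 75th percentile of the array over gene probes was subtracted (54.9, 57.0, 74.8 and 74.2 in signal). A gene was measured in a comparison where both arrays had its probe well above background. The 1 array per group limits the precision of every value. limma 3.58.1 in R 4.3.3 fitted the additive model to genes well above background on at least 2 arrays, after a check on simulated data. Other values came from Python 3.11.15. The members, lists and tests were chosen with earlier results of these data known. Genes were named by rule: the 4 lowest and 4 highest changes in each line and differences between lines on NC1, all members past 2-fold, the 2 lowest and 2 highest mean changes, and, of each list, genes past 2-fold and the one with the largest mean change. Of the members 76 carry current RefSeq symbols. Annotation on hg19 was not used here, so exons are not given.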

Additional observations from a re-analysis of the deposited data

Results flagged for a closer look

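Among the genes named by the fixed rule, 8 had changes of opposite sign in HCT116 and A549 that exceeded the median spot SD in both (0.061 and 0.071). Each line was 1 array against 1 array, spot SD does not cover arrays or cultures, and no difference was tested. The rule names genes for extreme values on these same arrays, and 74 of 77 members were below 0 in A549. Genes named for a high HCT116 value were thus likely to differ in sign. Over all members 35 were lower in A549 and higher in HCT116, and 1 was the reverse, without the same counts over all genes beside them. MRPL46 changed by 0.39 in HCT116 and -0.63 in A549. MRPL1 changed by 0.33 and -0.85. MRPL19 changed by 0.30 and -0.48. MRPL47 changed by 0.30 and -0.35. The HCT116 changes of the next 3 were small, with MRPS11 at 0.11 and -0.36, MRPS35 at 0.099 and -0.88, and MRPS22 at 0.069 and -0.79. MRPL2 ran the other way, with -0.075 in HCT116 and 0.18 in A549. MRPL32 (0.017 and -0.066) and MRPL33 (0.0046 and -0.31) also differed in sign, with HCT116 changes inside that spread.

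Negative control spots, which carry no gene, were well above background at 11 of 308 on HCT116 miR-891b and 2 of 308 on A549 miR-891b, against 0 on either NC1 array. Their part in the values of the members was not tested. Without probes in areas of stray signal, 62 of 65 members were below 0 in A549 and 32 of 65 in HCT116.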

How the results depend on the processing

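With normexp and quantile normalization the A549 median of the members was -0.24 (-0.25 relative to all genes), the NC1 median between lines -0.15 (-0.12 relative to all genes) with 3 members 2-fold lower and 4 higher, and limma called 22 members for the line (28.6%, against 22.2% of all genes). With quantile normalization these were -0.27 (-0.26), -0.13 (-0.072) and 4 higher. Median scaling gave an NC1 median of -0.23 and 3 higher. The percentile over detected probes gave -0.35 in A549, -0.20 on NC1, 4 higher and 8 line calls (10.4%, against 31.0% of all genes). With no filter on dim probes the members' median relative to all genes was -0.20 in HCT116 and 0.082 on NC1, because more dim genes enter the reference. Only genes well above background on all 4 arrays gave 24 line calls (31.2%, against 33.1% of all genes). At 1.5-fold, 23 members were lower in A549, or 29.9% against 15.3% of all measured genes. On NC1 25 were lower, or 32.5% against 28.5%, and 6 were higher, against 20.1% of all measured genes. The cause was not tested for the scalings. The median of all measured genes on NC1 moved from -0.10 to at most 0.022 with scaling. Members at least 2-fold lower in A549 numbered 3 or 4 in every normalization, value source and filter tried, and the miR-891b term called 0 members in all 9. The slide was not fitted as a block, since it coincides with the line. The additive model already compares miR-891b with NC1 within each line, and no replicate numbers pair samples further. All members were well above background on all 4 arrays, but the value of the dimmest on A549 miR-891b, MRPL1 (signal 52.8), moved with the background correction. Its A549 change was -0.85 in the main setting, -0.84 with quantile normalization and -0.41 with normexp and quantile normalization.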
